A study of Homo sapiens with 8 samples.

Results

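The cytosolic and mitochondrial heat shock protein genes described were 10 chosen by name: HSPA1A, HSPA1B, HSPA8, HSP90AA1, HSP90AB1, HSPB1, HSPH1, DNAJB1, HSPD1 and HSPE1. Of the 12700 genes listed for the 143B line and the 12810 listed for HOS, all 10 stood in both tables, and all 10 passed the filter for testing (at least 1 FPKM in at least 2 libraries of a line). FPKM counts fragments relative to transcript length and library total, so levels can be set side by side between genes. The members together made up 0.502% ± 0.134 of the summed FPKM in 143B controls and 0.415% ± 0.0563 in the sgNAT10 group of that line; for HOS these shares were 0.834% ± 0.0264 and 0.829% ± 0.00793 (mean ± SD, n = 2 libraries each, as for every SD below).

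Heat shock proteins are molecular chaperones that bind unfolded or partly folded proteins. In the cytosol, HSP70 binds short exposed stretches of a client, J-domain proteins such as DNAJB1 deliver clients and stimulate HSP70's ATPase, HSP110 proteins such as HSPH1 exchange its nucleotide, and HSP90 acts later on kinases, receptors and other clients. The small heat shock protein HSPB1 holds unfolded proteins without using ATP, and in the mitochondrial matrix HSPD1 (HSP60) and its lid HSPE1 (HSP10) form a folding chamber. Many of these genes are switched on by the transcription factor HSF1, which binds repeats of a short motif, and tumour cells are known for high chaperone levels.

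The study sequenced polyadenylated RNA from the osteosarcoma lines HOS and 143B, the latter a ras-transformed derivative of HOS. Each line gave a group labelled NC, the control, and a group labelled sgNAT10, whose cells carry a guide RNA against NAT10, the enzyme that acetylates cytidine in RNA to N4-acetylcytidine. The design text calls the latter knockout cells, and the comparison asks which transcripts differ without NAT10. The 4 groups held 2 libraries each, 8 in all; clone or pool, the guide's sequence, and whether the libraries of a group are separate cultures are not given in the sources used here, so p-values measure only the spread between these libraries, which may be technical.

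NAT10 itself was read first. The 143B controls held 16.1 and 19.9 FPKM of it and the sgNAT10 libraries 9.05 and 7.19. That is a log2 change of -1.06 (SE 0.31, adjusted p = 0.026, limma), and of -0.56 once corrected for the length and GC content of transcripts. HOS controls held 14.9 and 16.2 and HOS sgNAT10 libraries 21.1 and 19.1, which is a log2 change of 0.35 (SE 0.10, adjusted p = 0.0054, limma). NAT10 RNA was thus not lower in the HOS libraries labelled sgNAT10, and directions drawn from HOS below are those of libraries with that label; a guide can disrupt a gene without lowering its RNA, and protein was not analysed here. The 143B call was lost after median-ratio scaling (adjusted p = 0.060, limma) and without NC replicate 2 (0.064), sgNAT10 replicate 1 (0.11) or sgNAT10 replicate 2 (0.22). The HOS value was 0.14 after median-ratio scaling and -0.047 once corrected for the length and GC content of transcripts, and with sgNAT10 replicate 1 left out it missed the threshold (adjusted p = 0.18, limma).

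The tables give no read counts, so depth is unknown; a library's listed values added up to 484793 to 798137 FPKM. Libraries of the same group correlated at 0.979 and 0.986 in 143B and at 0.995 and 0.997 in HOS (Pearson, across genes on the log2 scale). The median change over all tested genes was -0.25 in 143B and 0.19 in HOS, and changes can be read relative to these. Bone and mesenchymal markers were uneven in 143B, and not all went with the line's label. COL1A1 was at 1.32 to 5.44 FPKM over its 4 libraries, RUNX2 at 0.37 to 1.0, and COL1A2 was not listed. ALPL was at 0.44 to 4.89, FN1 at 0.8 to 9.35 and CDH11 at 1.33 to 7.33. The others were higher, with TWIST1 at 4.44 to 13.1, CDH2 at 6.69 to 21.0, SPARC at 16.2 to 55.9 and VIM at 482 to 1741. In HOS COL1A1 was at 314 to 421. Of the epithelial markers, the keratin KRT18 was at 2037 to 4492 FPKM in 143B and 362 to 615 in HOS, KRT8 at 264 to 496 and 290.2 to 341, EPCAM at 0.87 to 3.44 and 15.6 to 20.5, and KRT19 at 0.08 to 1.89 and 0.61 to 3.86, while CDH1 was listed in neither line. Of the blood markers, CD68 was at 45.6 to 126 in 143B and 15.3 to 17.2 in HOS, and LYZ went from 0.69 and 1.3 in 143B NC to 6.89 and 7.33 in sgNAT10, while PTPRC, CD3E and HBB were listed in neither line. The summed mesenchymal markers moved with the label, from 1417 and 1851 FPKM in 143B NC to 519.6 and 820.3 in 143B sgNAT10, with 6 of 8 tested genes lower where 25.4% of all tested genes were, and from 1472 and 1664 in HOS NC to 1918 and 1848 in HOS sgNAT10, with 7 of 10 higher where 45.5% of all tested genes were. VIM alone made up most of the 143B sums, at 1339 and 1741 in NC. The part of these markers in the results below was not tested. In bulk RNA, fewer cells of a kind and less RNA per cell cannot be told apart.

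Because HSF1 binds inverted repeats of a 3-base unit, the promoter windows of the members (250 bases before to 50 after each RefSeq start, GRCh38.p14; all 10 matched) were searched for a pair of units, GAANNTTC or TTCNNGAA. Both patterns are their own reverse complement, so each match holds on both strands. At least 1 window of 8 of the 10 members held a match, against 16.2% of 27305 genes with a window. A run of 3 units, GAANNTTCNNGAA or TTCNNGAANNTTC, each the reverse complement of the other and each containing overlapping matches of the shorter pattern, stood in windows of 4 members, against 0.608% of all genes. The sites below, written 5′ to 3′ on the gene's strand with the units in capitals, are shown because they are the members' matches, 1 per gene; HSPA1A and HSPA1B are given at greater length because they differ at few bases.
HSPA1A, chr6:31815383-31815458, plus strand: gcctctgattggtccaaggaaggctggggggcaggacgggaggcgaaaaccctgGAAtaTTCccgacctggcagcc
HSPA1B, chr6:31827579-31827654, plus strand: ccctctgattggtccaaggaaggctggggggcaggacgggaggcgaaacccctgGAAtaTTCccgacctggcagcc
DNAJB1, chr19:14518456-14518485, minus strand: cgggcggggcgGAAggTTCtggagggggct
HSPB1, chr7:76302480-76302509, plus strand: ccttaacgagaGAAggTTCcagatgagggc
HSPA8, chr11:123062346-123062375, minus strand: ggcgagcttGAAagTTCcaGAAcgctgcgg
HSP90AA1, chr14:102087112-102087141, minus strand: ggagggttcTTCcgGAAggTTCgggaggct
HSP90AB1, chr6:44247769-44247798, plus strand: gggagcaggTTCtgGAAgaTTCatgggctc
HSPD1, chr2:197500061-197500090, minus strand: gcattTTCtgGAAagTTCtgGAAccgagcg

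The windows of HSPH1 (chromosome 13) and HSPE1 (chromosome 2) held no match, which says only that these letters are not in those 300 bases. The HSPD1 site above ends at base 197500090, just short of the HSPE1 window, which begins at 197500129. That site lies between the HSPE1 start at 197500379 and the HSPD1 start at 197499840. HSPD1 has another RefSeq start at 197500274, and the site lies downstream of that start on HSPD1's strand. The window of that other start held no match. HSPA8, HSP90AA1, HSP90AB1 and HSPD1 held the run of 3 units, and HSPA1A, HSPA1B, DNAJB1 and HSPB1 only the pair. HSPA1A and HSPA1B lie 12195 bases apart on chromosome 6, start to start; their windows matched at 92% of aligned positions and their longest open reading frames at 1922 of 1926 bases (99.8%). Of the 50-base words of HSPA1A's transcripts 71.3% also occur in another gene, and 73.5% of those of HSPA1B do, so reads between these genes could be split either way and each gene's level is uncertain on its own. For the other 8 members this share ran from 0% (HSPH1) to 16.6% (HSP90AB1), with pseudogenes such as HSP90AB3P and HSPD1P1 among the sharers. HSPE1 and HSPD1 stand head to head on chromosome 2, with RefSeq starts 105 or 539 bases apart on opposite strands.

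The stress-inducible HSP70 genes and DNAJB1, the J-domain partner of HSP70, were lower in the sgNAT10-labelled libraries of 143B and higher in those of HOS. HSPA1A mean FPKM was 4.48-fold lower in 143B and 2.99-fold higher in HOS, that of HSPA1B 3.05-fold lower and 2.82-fold higher, and that of DNAJB1 2.41-fold lower and 1.71-fold higher. No NC library overlapped a sgNAT10 library of its line for any of them.

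HSPA1A, which encodes the main inducible cytosolic HSP70, was at 12.5 and 14.98 FPKM in 143B NC and at 3.02 and 3.11 in sgNAT10. HOS libraries were at 16.85 and 19.2 in NC and at 55.3 and 52.5 in sgNAT10. The controls of the lines thus lay within a narrow band, and the sgNAT10-labelled libraries stood at opposite ends. The log2 change was -1.85 in 143B (SE 0.33, adjusted p = 0.0039, limma with Benjamini-Hochberg adjustment) and 1.53 in HOS (SE 0.097, adjusted p = 3.77e-09), or -1.60 and 1.34 relative to the median gene.

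HSPA1B, the neighbouring copy that encodes the same HSP70, was at 13.2 and 16.9 FPKM in 143B NC and at 4.54 and 5.33 in sgNAT10, a log2 change of -1.43 (adjusted p = 0.0098, limma). HOS libraries held 10.1 and 12.4 in NC and 33.2 and 30.1 in sgNAT10, a log2 change of 1.42 (adjusted p = 2.5e-08, limma). With the pair summed, which removes any split of reads between the copies, the changes were -1.72 (adjusted p = 0.0032, limma) and 1.52 (adjusted p = 4.06e-09, limma). In 143B HSPA1B missed the threshold without sgNAT10 replicate 1 (adjusted p = 0.10) or replicate 2 (0.055, limma).

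DNAJB1 was at 33.0 and 39.5 FPKM in 143B NC and at 14.3 and 15.7 in sgNAT10, so its log2 change was -1.21 (SE 0.27, adjusted p = 0.0084, limma). HOS showed 26.8 and 28.2 in NC and 45.6 and 48.4 in sgNAT10, so its log2 change was 0.75 (SE 0.092, adjusted p = 2.67e-06, limma). With sgNAT10 replicate 1 of 143B left out, the adjusted p was 0.052 (limma).

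The correction for length and GC content of transcripts, chosen after seeing the data, made the 143B changes of all 3 genes smaller without ending a call. They were then -1.12 for HSPA1A (adjusted p = 0.000389, limma), -0.71 for HSPA1B (adjusted p = 0.011) and -0.75 for DNAJB1 (adjusted p = 0.0037). A pseudocount of 5 gave -1.21 for HSPA1A in 143B.

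**Figure D1:**
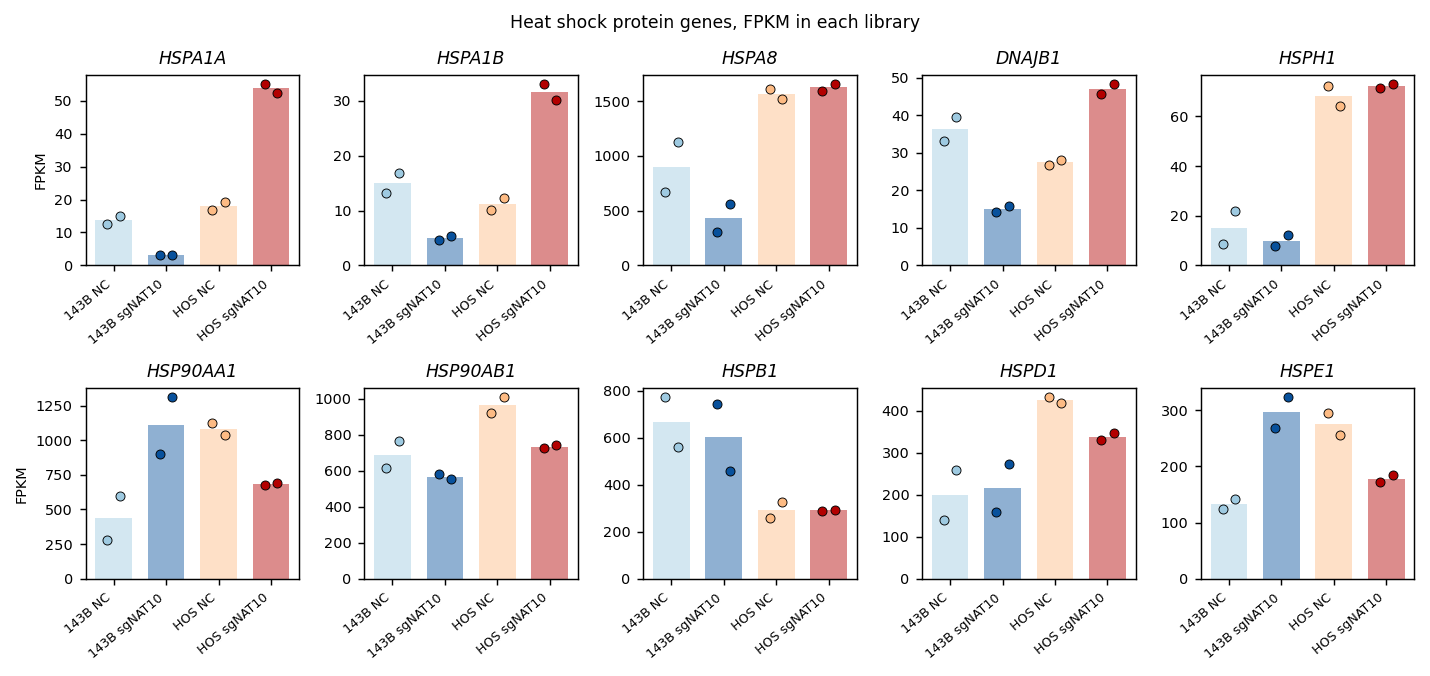
FPKM of the 10 heat shock protein genes (vertical axes, linear, each from 0) in the 4 groups; each point is a library and each bar the mean of 2. HSPA1A, HSPA1B and DNAJB1 go down from NC to sgNAT10 in 143B and up in HOS, HSP90AA1 and HSPE1 the other way.

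HSPA8, the constitutive cytosolic HSP70 (HSC70), did not pass the threshold in either line. It was at 666 and 1122 FPKM in 143B NC and at 307 and 564 in sgNAT10, and its log2 change was -1.05 (SE 0.38, adjusted p = 0.054, limma). The groups did not overlap, but replicate 2 lay above replicate 1 under both labels, and 9 of 16 alternative settings placed the change past the threshold. In HOS it was at 1613 and 1515 in NC and at 1594 and 1659.6 in sgNAT10, overlapping, with a log2 change of 0.06 and a 95% interval from -0.11 to 0.22. It passed as higher in HOS after rescaling to a common sum (0.27, adjusted p = 0.000282, limma) and after quantile normalization (0.52, adjusted p = 3.21e-06). The 143B change was -1.43 and passed without NC replicate 1 (adjusted p = 0.000288, limma), and was -1.49 and passed without sgNAT10 replicate 2 (adjusted p = 0.020).

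HSPH1, the HSP110 that exchanges nucleotide on HSP70, was at 8.69 and 21.7 FPKM in 143B NC and at 7.58 and 12.4 in sgNAT10, with overlapping groups. Its log2 change there was -0.47, with a 95% interval from -1.48 to 0.54 that leaves room for a sizeable change either way. In HOS it was at 72.0 and 64.1 in NC and at 71.4 and 73.2 in sgNAT10, a log2 change of 0.09 (95% interval -0.10 to 0.28). It passed as lower in 143B without NC replicate 1 (-1.09, adjusted p = 0.024, limma) and after the length and GC correction (-0.67, adjusted p = 0.015), and as higher in HOS after rescaling to a common sum (0.30, adjusted p = 0.0041) and without NC replicate 1 (0.17, adjusted p = 0.0395).

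The cytosolic HSP90 genes parted from each other. HSP90AA1, the inducible HSP90 alpha, rose in 143B and fell in HOS, and HSP90AB1, the constitutive HSP90 beta, passed the threshold in HOS alone, where it was lower. HSP90AA1 was at 278 and 599.7 FPKM in 143B NC and at 901 and 1314 in sgNAT10, without overlap. Its log2 change was 1.41 (SE 0.39, adjusted p = 0.021, limma), a 2.52-fold higher mean, although the NC libraries themselves differed widely. The call was lost after rescaling to a common sum (adjusted p = 0.092, limma) and without sgNAT10 replicate 2 (0.073), and the change was 0.86 without NC replicate 1. In HOS HSP90AA1 was at 1128 and 1037 in NC and at 674 and 692 in sgNAT10, so its log2 change was -0.66 (SE 0.079, adjusted p = 2.22e-06, limma). That call was lost only with a spread shared by all 8 libraries (adjusted p = 0.17), and the change was -0.22 after quantile normalization.

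HSP90AB1 was at 613 and 767 FPKM in 143B NC and at 583 and 552 in sgNAT10, a log2 change of -0.27 (95% interval -0.88 to 0.33, adjusted p = 0.45, limma), which passed the threshold after quantile normalization (-0.69, adjusted p = 0.019). In HOS it was at 924 and 1011 in NC and at 725 and 743 in sgNAT10, and its log2 change was -0.40 (SE 0.080, adjusted p = 0.000336, limma). That HOS call was lost with a shared spread (adjusted p = 0.12), and the value was -0.18 after rescaling to a common sum, -0.63 after median-ratio scaling and 0.035 after quantile normalization.

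HSPB1 (HSP27), the small heat shock protein, did not pass the threshold in either line as deposited. It was at 774 and 560.0 FPKM in 143B NC and at 744 and 459.8 in sgNAT10, so that the libraries numbered 1 lay above those numbered 2 under both labels. Its log2 change was -0.17 (95% interval -0.91 to 0.57). For HOS the values were 256 and 328 in NC and 289 and 293 in sgNAT10, a log2 change of 0.0037 (95% interval -0.21 to 0.21), the sgNAT10 values lying between the NC values. Its side in HOS depended on the setting: it passed as higher after rescaling to a common sum (0.22, adjusted p = 0.019, limma), after quantile normalization (0.23, adjusted p = 0.030) and without NC replicate 2 (0.18, adjusted p = 0.028), and as lower after median-ratio scaling (-0.23, adjusted p = 0.040) and without NC replicate 1 (-0.17, adjusted p = 0.0385). In 143B it was at -0.59 after quantile normalization (adjusted p = 0.048, limma).

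The mitochondrial pair moved unequally. HSPE1, the HSP10 lid of the matrix chaperonin, rose in 143B and fell in HOS, while HSPD1, the HSP60 ring, passed the threshold in HOS alone, where it was lower. HSPE1 was at 124 and 142 FPKM in 143B NC and at 269 and 324 in sgNAT10, and its log2 change was 1.14 (SE 0.24, adjusted p = 0.0075, limma), with a 2.22-fold higher mean; without sgNAT10 replicate 2 the adjusted p was 0.052. In HOS HSPE1 was at 296 and 257 in NC and at 172 and 185 in sgNAT10, and its log2 change was -0.63 (SE 0.089, adjusted p = 1.26e-05, limma), and -0.41 after rescaling to a common sum.

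HSPD1 was at 139 and 258 FPKM in 143B NC and at 159 and 273 in sgNAT10, overlapping, with replicate 2 above replicate 1 under both labels. Its log2 change was 0.14 (95% interval -0.69 to 0.97). The HOS values were 433 and 417 in NC and 329.9 and 346 in sgNAT10, and its log2 change was -0.33 (SE 0.080, adjusted p = 0.0015, limma). This smallest of the members' HOS calls was lost after rescaling to a common sum (adjusted p = 0.16), after quantile normalization (0.78) and with a shared spread (0.46), and was -0.56 after median-ratio scaling.

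**Figure D2:**
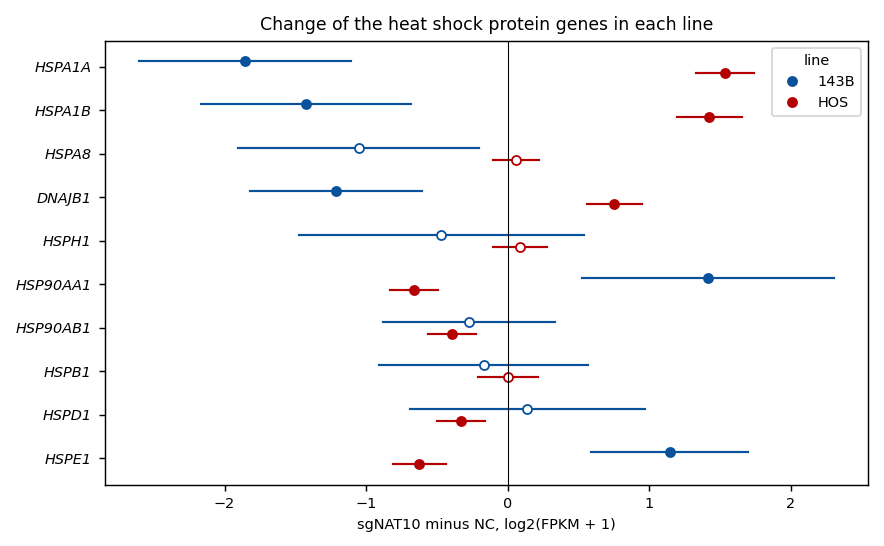
Change from NC to sgNAT10 on the log2(FPKM + 1) scale (horizontal axis) for each of the 10 genes in 143B (blue) and HOS (red); bars are 95% intervals from limma, and filled points have an adjusted p under 0.05. HSPA1A lies at -1.85 in 143B and 1.53 in HOS, and HSP90AA1 at 1.41 and -0.66.

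Counted over the members, 2 of 10 passed the threshold as higher and 3 as lower in 143B, where 12.9% and 25.4% of the 11419 tested genes did so. The count of higher members in 143B was 0 without sgNAT10 replicate 2, and that of lower members was 1 without sgNAT10 replicate 1 and 5 without NC replicate 1. HOS had 3 of 10 higher and 4 lower, where 45.5% and 23% of 11957 genes did. The share of higher among all calls depends on the scaling: it was 33.7% in 143B as deposited, 19.3% after rescaling to a common sum and 48.2% after median-ratio scaling, and 66.4%, 80.6% and 48.2% in HOS. The members' median log2 change was -0.37 in 143B, beside -0.25 for all genes, and 0.03 in HOS, beside 0.19.

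Of the members, 5 of 10 passed the threshold in both lines in opposite directions (HSPA1A, HSPA1B, DNAJB1, HSP90AA1 and HSPE1), and 0 in the same direction. Over the 10655 genes tested in both lines these shares were 19.4% and 6.12%. The lines share no control library, but the members include copies that share sequence, so they are not 10 independent genes. The members were also chosen with earlier results of these data known, so setting these counts beside all genes does not test the set.

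The difference itself, the 143B change minus the HOS change, was tested in a joint fit of the 4 groups. It passed the threshold below 0 for 3 members, where 36.2% of 10655 genes did, and above 0 for 2, where 12.9% did; 26.3% of all those calls were above 0 as deposited, 10.8% after rescaling to a common sum and 49.5% after median-ratio scaling. HSPA1A differed by -3.39 (SE 0.27, adjusted p = 6.7e-05, limma), HSPA1B by -2.85 (adjusted p = 0.000165) and DNAJB1 by -1.97 (adjusted p = 0.000362). HSP90AA1 differed by 2.07 (SE 0.46, adjusted p = 0.0053, limma) and HSPE1 by 1.77 (SE 0.24, adjusted p = 0.00053). The HSP90AA1 difference was 1.22 and lost its call after quantile normalization (adjusted p = 0.075, limma). After the length and GC correction HSPA1B differed by -1.85 and DNAJB1 by -1.28. Members below 0 numbered 5 without NC replicate 1 of 143B.

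For the other 5 members the difference missed the threshold as deposited. It was -1.11 for HSPA8 (95% interval -2.10 to -0.12, adjusted p = 0.061, limma), -0.56 for HSPH1 (-1.73 to 0.61), 0.12 for HSP90AB1 (-0.41 to 0.65), -0.17 for HSPB1 (-0.997 to 0.65) and 0.47 for HSPD1 (-0.54 to 1.47). These intervals are wide, so changes of equal size in the lines were not shown. The HSPA8 difference passed in 7 of 19 alternatives, among them without NC replicate 1 of 143B (-1.49, adjusted p = 0.011, limma) and without its sgNAT10 replicate 2 (-1.55, adjusted p = 0.011). Without NC replicate 1 of 143B the HSPH1 difference passed at -1.17 (adjusted p = 0.015, limma), as it did after the length and GC correction (-0.73, adjusted p = 0.021). The HSPD1 difference passed after median-ratio scaling (0.98, adjusted p = 0.043, limma), and those of HSPB1 (-0.82, adjusted p = 0.043) and HSP90AB1 (-0.72, adjusted p = 0.030) after quantile normalization.

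Ratios between partners within a library do not depend on the library's scaling; they were not tested. The HSP90AA1 to HSP90AB1 ratio was 0.453 and 0.782 in 143B NC and 1.55 and 2.38 in 143B sgNAT10, and 1.22 and 1.03 in HOS NC and 0.930 and 0.932 in HOS sgNAT10. HSP90 alpha RNA thus passed from below to above HSP90 beta RNA with the label in 143B, and from above to below it in HOS. On the log2 scale the mean ratio moved by 1.69 in 143B and by -0.27 in HOS.

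The HSPE1 to HSPD1 ratio was 0.896 and 0.551 in 143B NC and 1.69 and 1.19 in 143B sgNAT10, a shift of 1.01 on the log2 scale. HOS had 0.684 and 0.615 in NC and 0.521 and 0.534 in sgNAT10, a shift of -0.30. Neither line's groups overlapped, and 143B sgNAT10 was the only group in which HSP10 RNA exceeded HSP60 RNA. Among 10654 other genes, HSPE1 ranked 4512 by likeness of its pattern to HSPD1, its head-to-head neighbour.

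DNAJB1 to HSPA8 was 0.0496 and 0.0352 in 143B NC and 0.0466 and 0.0279 in 143B sgNAT10, overlapping, so that no shift larger than the spread was seen there. In HOS it was 0.0166 and 0.0186 in NC and 0.0286 and 0.0292 in sgNAT10, without overlap. HSPH1 to HSPA8 was 0.0131 and 0.0194 in 143B NC and 0.0247 and 0.0219 in 143B sgNAT10, without overlap, a shift of 0.55 on the log2 scale. In the HOS libraries it lay between 0.0423 and 0.0448, with overlapping groups. In a ratio chosen after its values were seen, HSPA1A to HSPA1B was 0.948 and 0.887 in 143B NC, 0.665 and 0.583 in 143B sgNAT10, and between 1.55 and 1.74 in all 4 HOS libraries.

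**Figure D3:**
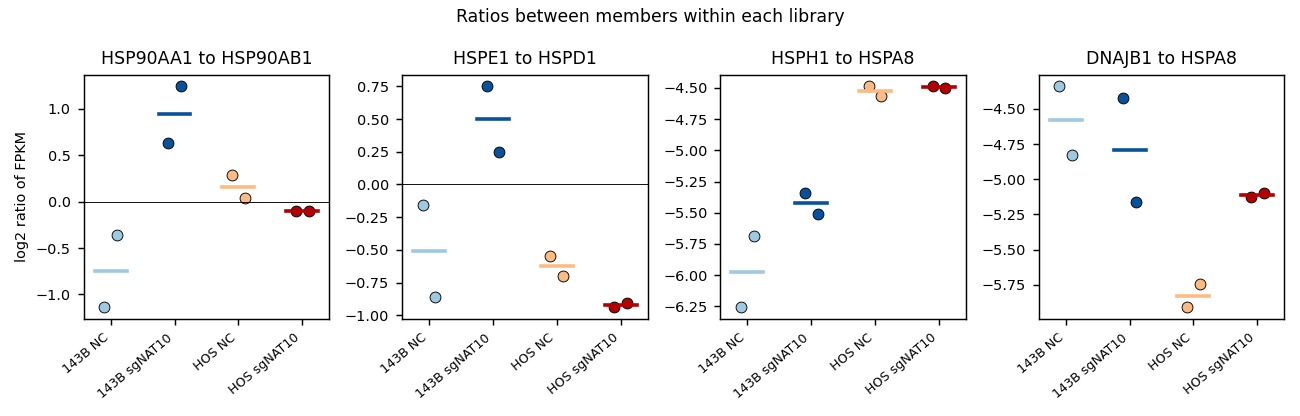
Log2 ratio of FPKM between partner genes (vertical axes) in each library (points), with the group mean as a line, for the 4 groups on the horizontal axes; a ratio of 1 lies at 0, and the HSPA8 panels do not reach it. The HSP90AA1 to HSP90AB1 ratio lies below 0 in 143B NC and above 0 in 143B sgNAT10, and the HOS groups lie closer together.

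In the controls, 7 of the 10 members had both HOS libraries above both 143B libraries, where 50.9% of 11807 genes did, and 3 had both below, where 37.4% did. The tables were normalized separately, so these levels are described without a test. HSPH1 stood furthest apart, at 68.1 ± 5.62 FPKM in HOS and 15.2 ± 9.22 in 143B, 4.48-fold higher. HSP90AA1 (1083 ± 63.9 against 439 ± 227), HSPD1 (425 ± 10.8 against 199 ± 84.7) and HSPE1 (276 ± 27.7 against 133 ± 12.9) were 2.47-fold, 2.14-fold and 2.07-fold higher in HOS. HSPB1 went the other way, at 667 ± 151 in 143B and 292 ± 50.9 in HOS, 2.28-fold higher in 143B.

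HSPA8 had the highest mean of the members in the controls of both lines, although HSPB1 lay above it in 143B NC replicate 1, at 894 ± 323 FPKM in 143B and 1564 ± 69.8 in HOS. It was followed in 143B by HSP90AB1 (690.2 ± 109), HSPB1 and HSP90AA1, each overlapping the one before it, then by HSPD1 and HSPE1, which overlapped each other. DNAJB1 (36.2 ± 4.57) stood alone there, and HSPH1, HSPA1B (15.03 ± 2.62) and HSPA1A (13.7 ± 1.75) overlapped. In HOS the order was HSPA8, HSP90AA1, HSP90AB1 (967 ± 61.5), HSPD1, HSPB1, HSPE1, HSPH1, DNAJB1 (27.5 ± 0.983), HSPA1A (18.0 ± 1.63) and HSPA1B (11.2 ± 1.61), and only HSPB1 and HSPE1 overlapped as neighbours. HSPA1A was 1.31-fold higher in HOS as deposited, but its log2 difference was -0.0003 after median-ratio scaling over the genes of both tables. The same scaling took the log2 difference of HSPE1 from 1.04 to 0.65, of HSPD1 from 1.16 to 0.77, of HSPA8 from 0.85 to 0.46, of HSP90AB1 from 0.49 to 0.10, of HSPA1B from -0.39 to -0.75 and of DNAJB1 from -0.38 to -0.76. Without 143B NC replicate 1 the difference was 0.85 for HSP90AA1 (1.40 with it), 0.72 for HSPD1 and 0.48 for HSPA8. That of HSPA1B was -0.22 without 143B NC replicate 2 and -0.25 without HOS NC replicate 1.

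**Figure D4:**
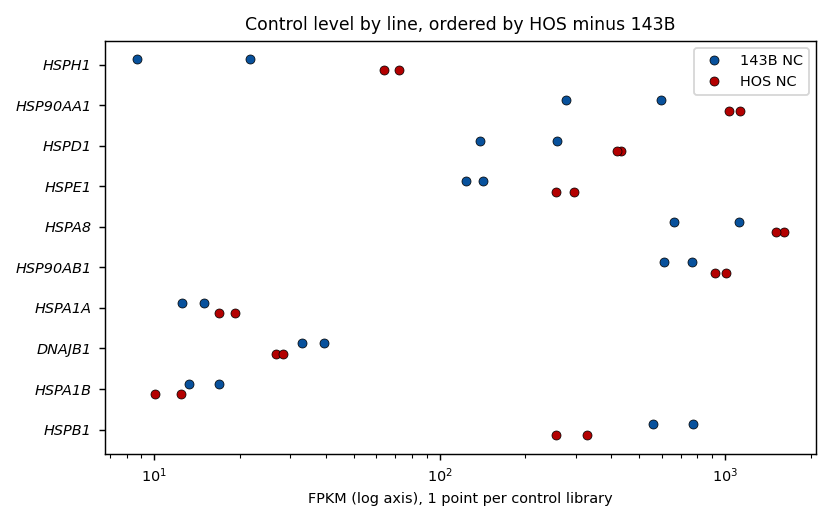
FPKM (horizontal axis, logarithmic) of each of the 10 genes in the 2 NC libraries of 143B (blue) and of HOS (red), ordered by the HOS minus 143B difference. HSPH1 at the top is 4.48-fold higher in HOS and HSPB1 at the bottom 2.28-fold higher in 143B.

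Genes with the most similar pattern over the 8 libraries were sought for the constitutive members, as the smallest root mean square difference of line-centred log2(FPKM + 1) among 10654 genes. These were FAM98A (0.04), MACO1 (0.04) and ZBED5 (0.05) for HSPD1, C8orf76, HIBADH and UBE2D1 (each 0.06) for HSPA8, and BUD31 (0.04), PAAF1 (0.07) and LYSMD1 (0.07) for HSP90AB1. All share the same libraries. No other member was among the nearest 3 of any of them: HSPH1 ranked 664 for HSPA8, and HSP90AA1 ranked 9549 for HSP90AB1.

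Around the members, 79 genes of the heat shock and chaperone network were listed by role. Of 68 tested in 143B, 4 were higher and 13 lower, and of 72 tested in HOS, 23 were higher and 24 lower, read against the shares of all genes given above. Of the 68 tested in both lines, 9 passed in opposite directions and 3 in the same direction. Over all genes tested in both lines 19.4% and 6.12% did so, so neither count stood above the share of all genes. Their median log2 change was -0.17 in 143B and -0.0077 in HOS.

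Among the regulators, HSF1, the main heat shock transcription factor, fell in 143B from 112 ± 9.33 to 54.2 ± 9.14 FPKM (log2 change -1.05, adjusted p = 0.011, limma) and rose in HOS from 39.2 ± 7.16 to 51.9 ± 1.98 (0.41, adjusted p = 0.0033). After the length and GC correction its changes were -0.18 (adjusted p = 0.44, limma) and 0.024 (adjusted p = 0.74); the calls were also lost after median-ratio scaling (0.14 in 143B and 0.13 in HOS), without sgNAT10 replicate 2 in 143B (0.088) and without sgNAT10 replicate 1 in HOS (0.055), where the change was 0.23 without NC replicate 1. HSBP1, which binds HSF1's trimerization domain, fell in HOS from 115 ± 3.49 to 72.6 ± 4.76 (-0.66, adjusted p = 6.04e-06, limma) and had a log2 change of 0.56 in 143B (adjusted p = 0.23). HSF2 fell in HOS (-0.42, adjusted p = 0.0026, limma) and stood at 0.19 in 143B (adjusted p = 0.71). Its HOS change missed the threshold without sgNAT10 replicate 1 (-0.37) and after rescaling to a common sum (-0.22, adjusted p = 0.077, limma). With the spread shared by all 8 libraries the HOS calls of HSF1 (adjusted p = 0.16, limma), HSBP1 (0.13) and HSF2 (0.28) were lost.

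BAG3, a co-chaperone that couples HSP70 to selective autophagy and is itself heat-inducible, had the largest 143B change on the log2(FPKM + 1) scale among the 24 network genes named; as a ratio of mean FPKM it was 5.11-fold lower and HSPA2 6.49-fold lower. It fell there from 52.5 ± 8.82 to 10.3 ± 0.332 FPKM (log2 change -2.24, adjusted p = 0.0013, limma) and rose in HOS from 22.4 ± 2.31 to 47.8 ± 1.27 (1.06, adjusted p = 1.49e-07). The difference between lines was -3.30 (adjusted p = 7.15e-05, limma), close in size to that of HSPA1A. BAG1, another HSP70 nucleotide exchange factor, rose in HOS (0.82, adjusted p = 4.03e-06, limma) and was at -0.63 in 143B (adjusted p = 0.11). Of the 7 BAG and exchange factor genes, 2 were lower in 143B (BAG3 and BAG6) and 5 higher in HOS, where 25.4% and 45.5% of all tested genes were; BAG6 was named after its value was seen.

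HSPA2, a further HSP70, fell in 143B from 3.67 ± 1.08 to 0.565 ± 0.205 FPKM (-1.56, adjusted p = 0.0039, limma; 0.057 without sgNAT10 replicate 1) and rose in HOS from 32.5 ± 2.06 to 56.4 ± 4.99 (0.78, adjusted p = 3.05e-06). HSPA4, an HSP110 relative, fell in HOS (-0.57, adjusted p = 2.46e-05, limma) and was at -0.64 in 143B (adjusted p = 0.28). The HOS call of HSPA4 was lost with the shared spread (adjusted p = 0.31, limma). The J-domain gene DNAJB6 rose in HOS (0.26, adjusted p = 0.015, limma). After the length and GC correction it passed as lower there (-0.40, adjusted p = 0.000635, limma). The HOS call was lost after median-ratio scaling (0.036, adjusted p = 0.75, limma) and with the shared spread (adjusted p = 0.51). It also missed the threshold without sgNAT10 replicate 1 (log2 change 0.27) or replicate 2 (0.25). DNAJA1 was at -0.20 in HOS (adjusted p = 0.057, limma) and at 0.63 in 143B (adjusted p = 0.18). DNAJB4 was tested in HOS alone, at -0.26 (adjusted p = 0.060, limma).

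The HSP90 co-chaperones held 2 higher and 0 lower genes of 14 in 143B, and 4 higher and 5 lower of 14 in HOS. Over all tested genes 12.9% were higher and 25.4% lower in 143B, and 45.5% higher and 23% lower in HOS. AHSA1, the activator of the HSP90 ATPase, rose in 143B from 137 ± 5.30 to 257 ± 17.4 FPKM (0.90, adjusted p = 0.016, limma) and was at -0.15 in HOS (adjusted p = 0.12). It missed the threshold in 143B with sgNAT10 replicate 1 left out (adjusted p = 0.066, limma) or replicate 2 (0.12), and after rescaling to a common sum, where the change was 0.57. STIP1 (HOP), which bridges HSP70 and HSP90, fell in HOS from 185 ± 3.90 to 105 ± 3.25 (-0.81, adjusted p = 4.54e-07, limma). In 143B it was at 0.53 (adjusted p = 0.10, limma) and passed as higher in 3 of 16 alternatives. Among these was the length and GC correction (1.16, adjusted p = 0.000311, limma). PTGES3 (p23) rose in HOS (0.40, adjusted p = 0.000367, limma), a call lost after median-ratio scaling (0.17, adjusted p = 0.091) and with the shared spread (adjusted p = 0.37), and was at 0.66 in 143B (adjusted p = 0.18). CDC37, which brings kinases to HSP90, and the immunophilin FKBP4 passed in neither line as deposited. Their log2 changes were -0.44 and 0.17 in 143B and 0.08 and 0.13 in HOS. After rescaling to a common sum CDC37 passed as lower in 143B (-0.78, adjusted p = 0.027, limma) and higher in HOS (0.29, adjusted p = 0.0022). FKBP4 passed as higher in HOS after that rescaling (0.34, adjusted p = 0.0011, limma). The length and GC correction placed FKBP4 higher in 143B (0.64, adjusted p = 0.032, limma) and lower in HOS (-0.23, adjusted p = 0.0027).

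Among the other small heat shock proteins, HSPB8, the partner of BAG3, rose in HOS from 2.11 ± 0.290 to 7.46 ± 0.742 FPKM (1.45, adjusted p = 4.44e-08, limma). In 143B its log2 change was 0.23 (adjusted p = 0.41, limma), from 0.94 and 0.69 FPKM in NC to 1.11 and 1.13 in sgNAT10. At such low levels the pseudocount understates a change. CRYAB was listed in 143B alone and was below the filter there.

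Of 17 other mitochondrial chaperones and proteases, 1 was higher and 5 lower in 143B, and 3 were higher and 4 lower in HOS. Over all tested genes 12.9% were higher and 25.4% lower in 143B, and 45.5% higher and 23% lower in HOS. The counts of lower genes lay near these shares, and those of higher genes lay below them. DNAJA3, the matrix J-domain protein, fell in 143B from 53.2 ± 0.00707 to 20.7 ± 1.44 FPKM (-1.32, adjusted p = 0.0046, limma) and was at 0.13 in HOS (adjusted p = 0.22). CLPP, a matrix protease, fell in 143B from 212 ± 44.0 to 106 ± 6.22 (-0.99, adjusted p = 0.015, limma) and was at -0.06 in HOS (adjusted p = 0.55). It missed the threshold in 143B without NC replicate 1 (-0.77) or sgNAT10 replicate 2 (-0.93), and after the length and GC correction (-0.46). The same held after median-ratio scaling (-0.71, adjusted p = 0.21, limma). HSPA9, the matrix HSP70, fell in HOS (-0.24, adjusted p = 0.020, limma), and TRAP1, the matrix HSP90, rose there (0.36, adjusted p = 0.0022); in 143B they were at -0.43 and -0.20. Both HOS calls were lost without sgNAT10 replicate 1, at -0.18 for HSPA9 and 0.34 for TRAP1, and that of HSPA9 without replicate 2 (-0.29). With the shared spread both were lost too (adjusted p = 0.57 and 0.18, limma). HSPA9 missed the threshold after quantile normalization (adjusted p = 0.16, limma), and was at -0.025 after rescaling to a common sum. TRAP1 missed it after median-ratio scaling (0.13, adjusted p = 0.21, limma) and the length and GC correction (0.11, adjusted p = 0.076). GRPEL1 and LONP1 passed in neither line as deposited, nor did SERPINH1, the collagen chaperone of the endoplasmic reticulum. After rescaling to a common sum LONP1 (-0.83, adjusted p = 0.022, limma) and SERPINH1 (-0.60, adjusted p = 0.048) passed as lower in 143B. The same rescaling placed LONP1 (0.28, adjusted p = 0.011, limma) and GRPEL1 (0.32, adjusted p = 0.0051) higher in HOS. The length and GC correction placed LONP1 (-0.29, adjusted p = 0.0025, limma) and SERPINH1 (-0.48, adjusted p = 3.19e-05) lower in HOS.

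**Figure D5:**
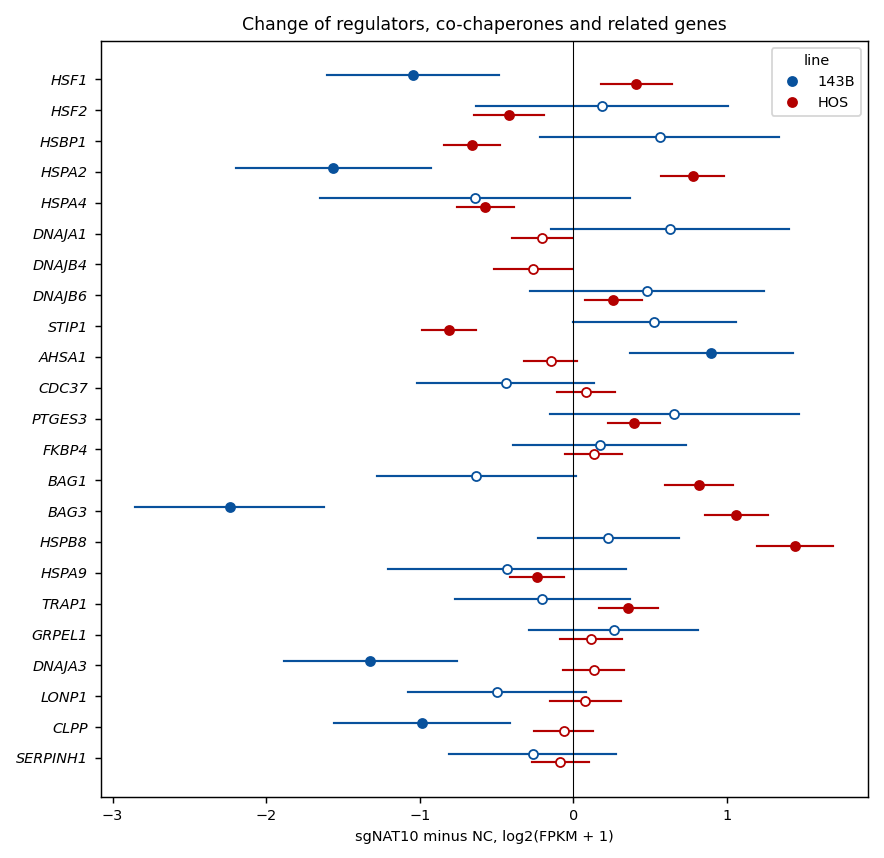
Change from NC to sgNAT10 on the log2(FPKM + 1) scale (horizontal axis) of the named regulators, co-chaperones and related genes in 143B (blue) and HOS (red), with 95% intervals from limma; filled points have an adjusted p under 0.05, and DNAJB4 was tested in HOS alone. BAG3 lies at -2.24 in 143B and 1.06 in HOS, and AHSA1 at 0.90 and -0.15.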

How the data were processed

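The values are FPKM that the authors deposited per gene, in a separate table for each line (unit per the file headers). Bowtie2, RSEM, DESeq2 and GRCh38 are named in the submitters' processing notes without versions or roles; the annotation version was not given in the sources used here. From the FPKM, log2(FPKM + 1) was computed, with a pseudocount of 1, which understates changes of low genes. Genes reaching 1 FPKM in 2 or more of a line's libraries were fitted with limma 3.58.1 in R 4.3.3 (intensity trend, two-sided, Benjamini-Hochberg adjustment over all tested genes, threshold 0.05), each line alone; a joint fit gave the difference between lines. The fits were tested on simulated data.

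With 2 libraries per group, the smallest exact permutation p for a single gene is 0.33, so limma's use of the spread over all genes carries the tests. Depth is unknown and limits precision by an unknown amount. The members and lists were chosen with earlier results of these data known. The text names all 10 members, NAT10, 24 network genes whatever their change, BAG6 after its value was seen, and the 3 genes most alike in pattern to HSPD1, HSPA8 and HSP90AB1. Promoter sequences are from RefSeq (GRCh38.p14); transcript sequence, lengths and GC content are from GENCODE transcripts of GRCh38. Alternatives were other pseudocounts, filters, scalings and moderation, a replicate block, a shared spread, and leaving out each library. A length and GC correction and a crossed block in HOS were chosen after seeing the data.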

Additional observations from a re-analysis of the deposited data

Results flagged for a closer look

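The change from NC to sgNAT10 differed between the lines for 5 of the 10 heat shock protein genes, by limma's test of the difference (143B minus HOS, log2). The differences were -3.39 for HSPA1A, -2.85 for HSPA1B, -1.97 for DNAJB1, 2.07 for HSP90AA1 and 1.77 for HSPE1. All 5 went in opposite directions in the lines, with no overlap of NC and sgNAT10 libraries in either. The 10 genes were chosen with earlier results of these data known, so this count does not test the set.

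The same test flagged 10 of the named network genes. HSF1 differed by -1.46, HSPA2 by -2.34, BAG1 by -1.45, BAG3 by -3.30, HSPB8 by -1.22, DNAJA3 by -1.45 and CLPP by -0.92, the value being lower in 143B. HSPB8 lay at only 0.69 to 1.13 FPKM in 143B, where the pseudocount understates a change. HSBP1 differed by 1.22, STIP1 by 1.34 and AHSA1 by 1.05. After the length and GC correction HSF1 differed by -0.21 (adjusted p = 0.29, limma; -0.95 and 0.064 after median-ratio scaling) and CLPP by -0.35 (adjusted p = 0.072). After rescaling to a common sum HSBP1 differed by 0.68 (adjusted p = 0.23, limma) and AHSA1 by 0.50 (adjusted p = 0.069). Without sgNAT10 replicate 2 of 143B, HSBP1 differed by 0.75 (adjusted p = 0.069, limma). In all, the HSBP1 difference missed the threshold in 7 of 19 alternatives, among them leaving out NC replicate 1 of 143B or any of the 4 HOS libraries, and that of CLPP in 5 of 19, among them leaving out HOS NC replicate 1 or either HOS sgNAT10 library. The lines differ too in NAT10 RNA, whose difference was -1.41 (adjusted p = 0.0036, limma). After the length and GC correction the NAT10 difference was -0.51 and missed the threshold (adjusted p = 0.0502, limma). The part of NAT10 RNA in the differences of the other genes was not tested.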

How the results depend on the processing

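HSPA1A in each line, HSPA1B, DNAJB1 and HSPE1 in HOS, and the differences between lines of HSPA1A, HSPA1B, DNAJB1 and HSPE1 kept their direction and their side of the threshold in every alternative run. Changes of side of other members are given with the results, for HSPA8 in part as counts, and those under the replicate block below. The cause of the changes below was not tested, and depth, which is unknown, sets no stated limit.

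Members higher in 143B (2 as reported) numbered 1 after rescaling to a common sum and 0 to 2 when a library was left out (0 without sgNAT10 replicate 2). Members lower in 143B (3) numbered 6 after quantile normalization, 5 with a replicate block, 5 after the length and GC correction, and 1 to 5 when a library was left out (1 without sgNAT10 replicate 1, 5 without NC replicate 1). Members higher in HOS (3) numbered 6 after rescaling to a common sum and 5 after quantile normalization, and members lower (4) numbered 2 after quantile normalization and 1 with the shared spread. Over all 11957 tested genes, HOS calls higher (5444) numbered 7075 after that rescaling and 3948 after quantile normalization, and calls lower (2751) numbered 3799 after the latter. For all genes, 143B calls lower (2897) numbered 2854 after quantile normalization and 3084 after the length and GC correction. Differences below 0 (3860) numbered 3082 and 3244 in these settings. For the difference, members above 0 (2) numbered 1 after quantile normalization, and members below 0 (3) numbered 6 after quantile normalization, 5 with a replicate block, 5 after the length and GC correction, and 3 to 5 when a library was left out (5 without 143B NC replicate 1).

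The labels do not pair same-numbered libraries. Their deviations from the group means correlated at 0.605 in 143B and -0.106 in HOS. With the replicate block, genes called in 143B numbered 2737 higher and 4915 lower, against 1473 and 2897, and differences above 0 numbered 2272, against 1375. Under the block HSPA8 (adjusted p = 9.78e-08, limma) and HSPH1 (0.033) passed as lower in 143B, and the differences of HSPA8 (3.74e-06), HSPH1 (0.032) and HSPD1 (0.027) passed. Over all genes, 143B calls higher numbered 919 with a filter at 5 FPKM, 896 after rescaling to a common sum, 2361 after median-ratio scaling, 2795 after quantile normalization, 2991 after the length and GC correction, 959 without sgNAT10 replicate 1 and 653 without replicate 2; calls lower numbered 1401 and 1342 without these. HOS calls lower (2751) numbered 1703 after rescaling to a common sum, and with the shared spread HOS calls numbered 1562 higher and 302 lower, against 5444 and 2751. Differences above 0 numbered 625 after rescaling to a common sum, 2662 after median-ratio scaling, 2810 after quantile normalization, 2888 after the length and GC correction, 2217 without 143B NC replicate 2, 861 without HOS NC replicate 1, and 841 and 903 without HOS sgNAT10 replicates 1 and 2; differences below 0 (3860) numbered 2520 with a filter at 5 FPKM.

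Log2 changes that turned sign were mostly of genes past the threshold in no direction as deposited. NAT10, HSP90AB1 and DNAJB6 in HOS are the exceptions. Some values passed the threshold with their new sign. HSPB1 in HOS did so after median-ratio scaling (adjusted p = 0.040, limma), and the HSP90AB1 difference after quantile normalization (0.030). So did DNAJB6 (adjusted p = 0.000635, limma), FKBP4 (0.0027), LONP1 (0.0025) and DNAJA3 (0.0185) in HOS after the length and GC correction. After rescaling to a common sum, 143B values were -0.20 for HSPD1, -0.064 for HSF2, -0.16 for FKBP4 and -0.064 for GRPEL1, HOS values 0.0067 for DNAJA1, 0.064 for AHSA1, 0.15 for CLPP and 0.13 for SERPINH1, and differences -0.43 for HSP90AB1 and -0.079 for HSPD1. After median-ratio scaling, 143B values were 0.0075 for HSP90AB1, 0.11 for HSPB1, 0.079 for TRAP1 and 0.015 for SERPINH1. HOS values were -0.17 for HSPA8, -0.14 for HSPH1, -0.23 for HSPB1, -0.15 for CDC37, -0.094 for FKBP4, -0.11 for GRPEL1, -0.091 for DNAJA3 and -0.15 for LONP1. The HSPB1 difference was 0.34 and the HSPA1A control level difference -0.000295. After quantile normalization, HOS values were 0.035 for HSP90AB1 and 0.016 for SERPINH1, and the HSP90AB1 difference was -0.72.

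After the length and GC correction, 143B values were 0.39 for HSPB1, -0.032 for HSF2, 0.12 for CDC37, 0.40 for TRAP1, 0.35 for LONP1 and 0.46 for SERPINH1. HOS values were -0.047 for NAT10, -0.022 for HSPA8, -0.078 for HSPB1, 0.12 for DNAJB4, -0.40 for DNAJB6, -0.044 for CDC37, -0.23 for FKBP4, -0.20 for DNAJA3 and -0.29 for LONP1, and the HSPB1 difference was 0.47. When each library of a line was left out in turn, 143B values ran from -1.09 to 0.14 for HSPH1, -0.52 to 0.18 for HSPB1, -0.31 to 0.58 for HSPD1, -0.14 to 0.52 for HSF2 and -0.020 to 0.36 for FKBP4. HOS values ran from -0.17 to 0.18 for HSPB1, -0.0029 to 0.17 for CDC37, -0.11 to 0.26 for LONP1, -0.16 to 0.028 for CLPP and -0.18 to 0.0061 for SERPINH1. Differences ran from -1.17 to 0.056 for HSPH1, -0.039 to 0.28 for HSP90AB1 and -0.52 to 0.17 for HSPB1.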
